A study of Mus musculus with 3 samples.

Results

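The genes of MHC class II antigen presentation were compared in mouse splenic CD4 T cells, splenic B220 B cells and embryonic stem (ES) cells. The set was 9 named genes, namely Cd74, H2-Aa, H2-Ab1, H2-Eb1, H2-DMa, H2-DMb2, H2-Oa, H2-Ob and Ciita, out of 18193 genes with a probe set of a single listed symbol. They were read by 19 of the 45037 probe sets of the array, every one that the array's annotation gave to 1 of these symbols alone. A further 3 probe sets, listed under one of these symbols together with another gene, were left out.

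Messenger RNA was measured on 3 one-colour 3' arrays, with 1 array for each population and C57BL/6 as the strain of all 3. The CD4 T cells and the B220 B cells were primary spleen cells of mice aged 6 to 8 weeks, purified on magnetic beads to over 98% per the labels, and neither genotype nor treatment other than the harvest is named. The ES cells, line B6N-22, were grown on mitomycin C-treated embryonic fibroblasts with leukemia inhibitory factor. The sources used here do not give how many mice stood behind each lymphocyte array, or whether feeder cells were taken out before the RNA was made. There was no replicate of any population, so every difference below is a difference between 2 arrays, without a replicate check, a test or a p-value.

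MHC class II molecules are pairs of an alpha and a beta chain that show peptides from the endosomal pathway to CD4 T cells. The invariant chain, encoded by Cd74, escorts new pairs to the endosome and fills their groove. There the DM pair exchanges its remnant for peptide, and the DO pair restrains DM. B cells, dendritic cells and macrophages make these proteins, and mouse CD4 T cells are generally held to make little of them. The genes are switched on together through a promoter module of an X box and a Y box, bound by the RFX complex, CREB1 and NF-Y, and the coactivator encoded by Ciita is recruited to these proteins rather than to DNA.

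Promoter windows for 6 of the 9 genes were found in RefSeq's GRCm38.p6 table, each of 300 bases, with 250 before and 50 after a listed transcript start. In that assembly the H2 genes follow each other on chromosome 17 in the order H2-Oa, H2-DMa, H2-DMb2, H2-DMb1, H2-Ob, H2-Ab1, H2-Aa and H2-Eb1. The stretches printed here are shown because they hold the letters that the class II genes share. The capitals mark TGATTGG, which holds the inverted CCAAT of the Y box, and, before it, GCAAC or else ATGATGC, which are letters of the X box and both present in H2-Eb1 and H2-Ob. No searched letters overlap each other.
H2-Aa, chr17:34287857-34287929, minus strand: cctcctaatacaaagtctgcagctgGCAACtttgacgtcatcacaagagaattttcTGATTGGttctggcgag
H2-Eb1, chr17:34305751-34305822, plus strand: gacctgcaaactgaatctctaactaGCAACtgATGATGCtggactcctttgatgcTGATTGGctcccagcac
H2-DMb2, chr17:34145108-34145173, plus strand: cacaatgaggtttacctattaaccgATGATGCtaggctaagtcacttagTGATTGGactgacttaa
H2-Oa, chr17:34092278-34092350, plus strand: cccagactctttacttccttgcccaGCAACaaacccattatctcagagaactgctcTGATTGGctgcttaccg
H2-Ob, chr17:34238793-34238862, plus strand: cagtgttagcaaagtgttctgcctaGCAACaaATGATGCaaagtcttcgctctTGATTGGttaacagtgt

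Both parts were present in the windows of 5 of these 6 genes, with 14 to 26 bases between them. The pair was searched on both strands, as GCAAC or ATGATGC followed by TGATTGG after 10 to 40 bases, and the letters were chosen after these windows had been read. Of 32851 RefSeq promoter windows read, all outside chromosome 18, 0.31% held the pair, 7.82% held TGATTGG, 35.2% held GCAAC and 2.46% held ATGATGC. The exception was H2-DMa, whose 2 windows, at listed transcript starts, held neither TGATTGG nor the pair. No promoter is shown for H2-Ab1, Cd74 and Ciita. The neighbouring class II genes H2-DMb1 and H2-Eb2 held the pair as well. A match of letters describes the window and does not show that a protein binds there.

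Signals are given as the authors deposited them, on a linear scale. Folds and percentages were taken between arrays for the same probe set. Summed signals of marker lists and a rank within an array put signals of different genes together, so the brightest probe sets weigh most in them. A signal of 95.0, the 50th percentile of all values, was taken as the detection level and as the floor for the log2 scale, so that a fold against such an array is a lower bound, written "at least". In all 19 probe sets the order of the deposited signals was the same, with B cells highest, T cells next and ES cells lowest. For the dimmest Ciita probe set the T cell and ES cell signals, 40.8 and 2.4, were both below the detection level, so their order carries little weight. How many of all probe sets had this order was not counted. All 19 were above the detection level in B cells, 18 in T cells and 3 in ES cells. Only the distance between the levels differed from gene to gene, and with 1 array each it cannot be said which neighbours in that order differ beyond their spread.

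**Figure D1:**
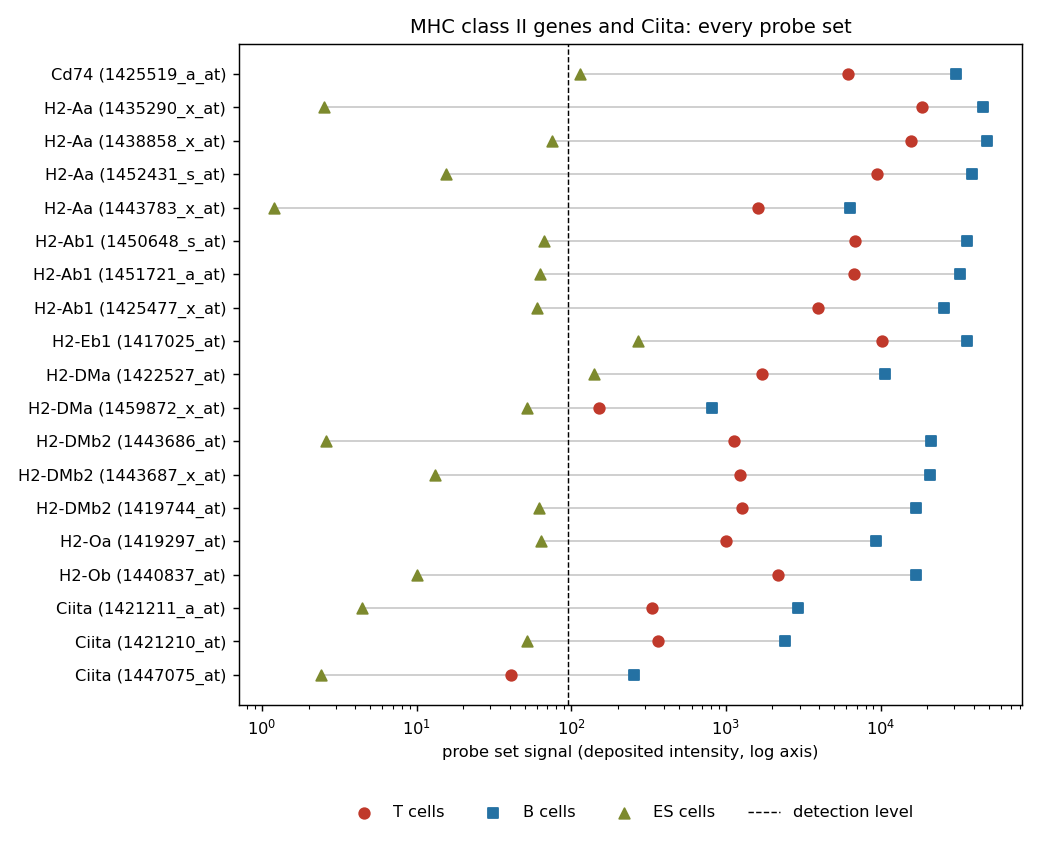
Signal of each of the 19 probe sets (rows, with the probe set in brackets) in T cells, B cells and ES cells, on a log axis; each point is 1 array and the dashed line is the detection level of 95.0. B cells are to the right of T cells and T cells to the right of ES cells in every row, and the ES cell point is left of the dashed line in all rows but those of Cd74, H2-Eb1 and the brighter H2-DMa probe set.

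The populations were first checked against their defining markers, with each gene read by its brightest probe set. All 10 T cell markers with a probe set were above the detection level in T cells, with Cd3d at 17144 and Cd4 at 834. Of these T cell markers 8 also passed that level in B cells, with signals up to 378, and 4 in ES cells, up to 1180. All 13 B cell markers were above the detection level in B cells, with Cd79b at 31707 and Ms4a1 at 32919, and the ES cell array had Pou5f1 at 15459 and Nanog at 9384. The T cell array also showed B cell markers, with Cd79b at 1096 and Ms4a1 at 2202, and macrophage markers, with Csf1r at 19275 in T cells, against 8930 in B cells. In ES cells all 10 fibroblast markers passed the detection level, with Col1a2 at 15844. The level of a gene in such bulk RNA does not tell fewer cells that express it from less RNA per cell.

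Against ES cells, T cells were higher by 4-fold or more for 8 of the 9 genes, where 10.8% of 12325 measured genes met that mark, and B cells for all 9, where 9.85% of 12463 measured genes did. The share lower by as much was 10.2% for T cells and 10.3% for B cells, and none of the 9 genes was among them. A gene counts as measured if either array of the pair passed the detection level. The median log2 difference of the 9 genes was 4.51 for T cells over ES cells, beside -0.11 for all measured genes, and 7.48 for B cells over ES cells, beside -0.07. Both comparisons use the same ES cell array. Of the 9 differences, 6 are bounds in each of them. Scaling each array to its 75th percentile put the median of all genes at -0.42 and -0.37 for these comparisons, and the share of higher genes among those at 4-fold at 38.6% in place of 51.5% for T cells and 37.4% in place of 48.8% for B cells. Relative to those medians the 9 genes had 4.77 and 7.73, against 4.62 and 7.56 with the deposited scaling.

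**Figure D2:**
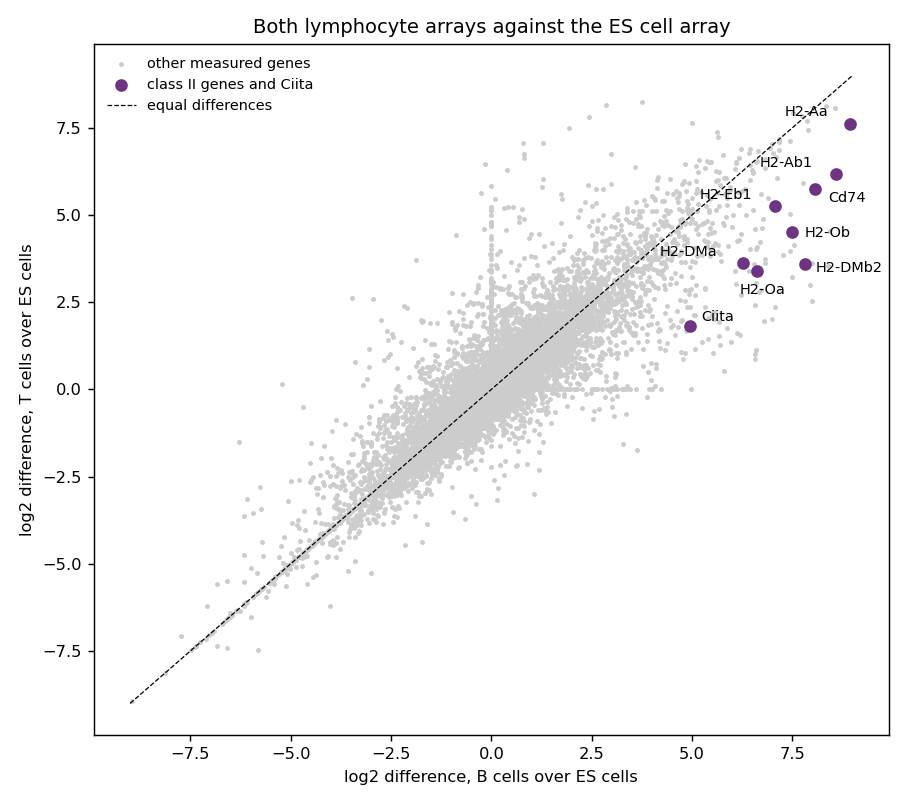
The log2 difference of T cells over ES cells (vertical) against that of B cells over ES cells (horizontal) for each measured gene by its brightest probe set, with values below the detection level raised to it; the dashed line marks equal differences. All 9 genes, the class II genes and Ciita (purple), are below the dashed line, from Ciita at 1.82 (vertical) and 4.95 (horizontal) to H2-Aa at 7.62 and 8.92.

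Of the peptide-presenting chains, H2-Aa, the alpha chain of the I-A molecule, had signals of 18638 in T cells, 46174 in B cells and 2.5 in ES cells by its brightest probe set. T cells exceeded ES cells at least 196-fold and B cells exceeded them at least 486-fold. Its other 3 probe sets gave 15749, 9476 and 1607 in T cells, against 48690, 39333 and 6360 in B cells, and at most 75.1 in ES cells. T cells thus had between 24.1% and 40.4% of the B cell signal, and the upper of these values was the highest among the 19 probe sets.

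H2-Ab1, the beta chain of the same molecule, had signals of 6819, 6756 and 3929 in T cells by its 3 probe sets, against 36257, 32591 and 25608 in B cells, and 66.2, 63.2 and 59.8 in ES cells. By the brightest, T cells exceeded ES cells at least 71.8-fold, and B cells at least 382-fold. The 3 probe sets put T cells at 15.3% to 20.7% of B cells.

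H2-Eb1, the beta chain of the I-E molecule, had signals of 10192 in T cells, 36268 in B cells and 269 in ES cells, from its only probe set. Its ES cell signal was above the detection level, so its differences from ES cells, 37.9-fold for T cells and 135-fold for B cells, are not bounds. Its partner gene, H2-Ea, is known to be disabled in C57BL/6 mice by a deletion that takes the promoter. All 3 probe sets of H2-Ea were below the detection level in all 3 arrays, with signals between 10.7 and 52.9.

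Cd74, the invariant chain, had signals of 6123 in T cells, 30707 in B cells and 115 in ES cells, from 1 probe set. The differences from ES cells were 53.4-fold for T cells and 268-fold for B cells. T cells had 19.9% of the B cell signal, which lies between the values of H2-Ab1.

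The DM pair loads peptide. H2-DMa, its alpha chain, had signals of 1706 in T cells, 10706 in B cells and 140 in ES cells, so that T cells exceeded ES cells 12.2-fold and B cells 76.6-fold. Its dimmer probe set gave 151, 816 and 51.4 in the same order, at least 1.59-fold and at least 8.59-fold, so its difference between T cells and ES cells reached 4-fold by 1 probe set only. The T cell signal was 15.9% of the B cell signal by the brighter probe set and 18.5% by the dimmer.

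H2-DMb2, a DM beta chain, had signals of 1136, 1241 and 1271 in T cells by its 3 probe sets, against 21318, 20838 and 17006 in B cells and 2.6, 13.2 and 61.4 in ES cells. By the brightest, T cells exceeded ES cells at least 12.0-fold, and B cells at least 224-fold. T cells had 5.33% to 7.47% of the B cell signal, the lowest percentages among the 9 genes. H2-DMb1 is a near-identical neighbour with no probe set of its own symbol alone, and how far its transcripts add to these signals was not tested.

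The DO pair restrains DM and is known mainly from B cells. H2-Oa, its alpha chain, had signals of 1003 in T cells, 9404 in B cells and 63.6 in ES cells, so that T cells exceeded ES cells at least 10.6-fold and B cells at least 99.0-fold. H2-Ob, its beta chain, had signals of 2170 in T cells, 17018 in B cells and 10 in ES cells, which gives at least 22.8-fold for T cells and at least 179-fold for B cells over ES cells. The T cell signal was 10.7% of the B cell signal for H2-Oa and 12.8% for H2-Ob, each from 1 probe set.

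Ciita, the class II transactivator, had signals of 335 in T cells, 2931 in B cells and 4.4 in ES cells by its brightest probe set. A second probe set gave 366, 2414 and 51.9 in the same order. The third and dimmest gave 255 in B cells and was below the detection level in T cells, with 40.8, and in ES cells, with 2.4. By the brightest, T cells exceeded ES cells at least 3.53-fold and B cells at least 30.9-fold. Both of these folds are lower bounds set by the detection level, since the ES cell signal was below it. Ciita was the 1 gene of the 9 not counted at 4-fold in T cells against ES cells. Only its bound was below 4-fold, and the difference itself may be larger. With no floor and 16 added its log2 difference was 4.10, and it was counted. The alternatives that kept a floor and the 4-fold threshold left it uncounted.

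Between the lymphocyte arrays, T cells were lower for all 9 genes, and for 7 by 4-fold or more, where 1.85% of 11194 measured genes met that mark and 2.49% were higher by as much. Their median log2 difference was -2.65, beside -0.05 for all measured genes, and none of the 9 values is a bound. Ranked from the lowest among measured genes, with values below the detection level raised to it, H2-DMb2 was number 21, at -4.23 (18.8-fold lower). Among the 9 it was followed by H2-Oa at -3.23, Ciita at -3.13, H2-Ob at -2.97 and H2-DMa at -2.65. H2-Ab1 was at -2.41 and Cd74 at -2.33. The 2 genes that did not reach 4-fold were H2-Eb1 at -1.83 and H2-Aa at -1.31, and of the 4 probe sets of H2-Aa 1 reached it, at 4.15-fold lower.

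By role, the DM and DO chains had log2 differences of -4.23 to -2.65 between T cells and B cells by their brightest probe sets, and the peptide-presenting chains -2.41 to -1.31, so that these ranges did not overlap. Over all probe sets they did, with -4.23 to -2.43 for the 7 probe sets of DM and DO chains and -2.70 to -1.31 for the 8 of peptide-presenting chains. For comparison, a single probe set of a gene varied by an SD of 0.40 on the log2 scale in T cells against B cells, estimated from the brightest pair of probe sets of 5361 genes. That figure covers probe effects and not differences between mice. The highest H2-Aa signal in B cells, 48690, ranked 15 among all probe sets of that array, whose top signal was 58060. The H2-Aa probe sets with B cell signals of 46174, 48690, 39333 and 6360 gave -1.31, -1.63, -2.05 and -1.99 in that order. The differences thus did not follow brightness throughout, and whether bright probe sets understate the difference was not tested.

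**Figure D3:**
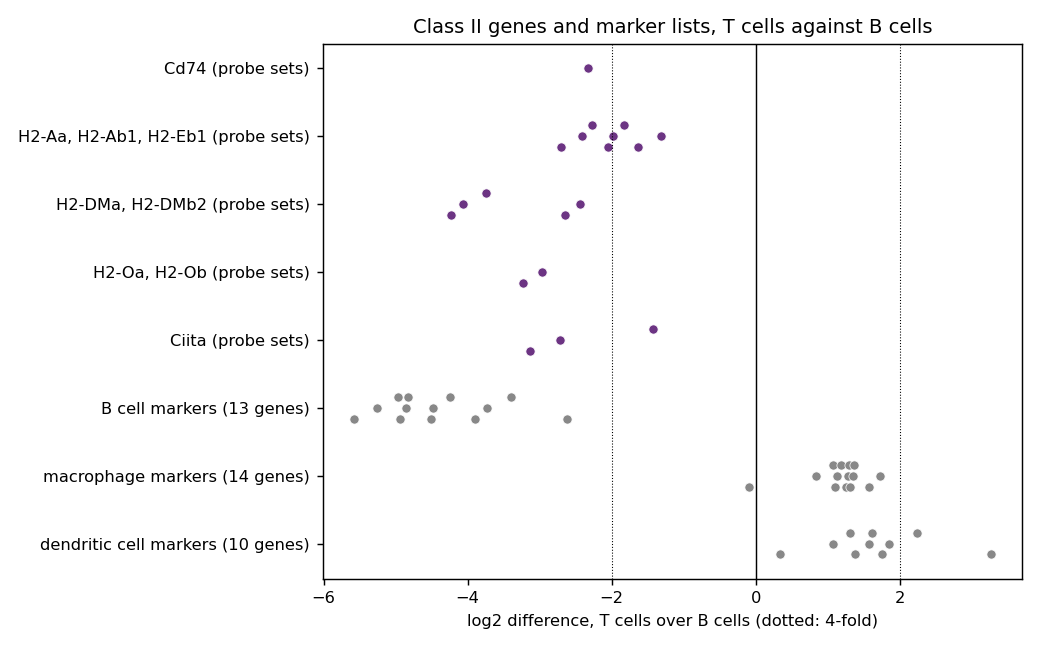
The log2 difference of T cells over B cells for each probe set of the class II genes and Ciita (purple), and for each measured gene of 3 marker lists by its brightest probe set (grey); points are spread vertically only to keep them apart, and the dotted lines mark 4-fold. All purple points are left of 0, from -4.23 to -1.31, while the B cell markers run from -5.57 to -2.62 and 13 of 14 macrophage markers and all 10 dendritic cell markers are right of 0.

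The marker lists of other class II-expressing cells differed between the same lymphocyte arrays. All 13 B cell markers were lower in T cells by 4-fold or more, with a median log2 difference of -4.51 and a median T cell signal of 4.38% of the B cell signal, ranging from 2.10% to 14.6%. The upper end of that range was Pax5, which was below the detection level in T cells. The other 12 markers were above it there and reached at most 9.53%, and 8 of the 9 genes of the set, by their brightest probe sets, were above that value, with H2-DMb2 below it at 5.33%. With Pax5 included, 5 of the 9 genes were above every B cell marker. Macrophage markers were mostly higher in T cells, 13 of 14 in number with a median of 1.27, and 0 reached 4-fold. Of all 11194 measured genes, 5115 were higher in T cells. By 4-fold or more 2.49% were higher and 1.85% lower, so 0 of 14 was near the share of all genes. The summed signal of the macrophage markers was 77174 in T cells, 33027 in B cells and 4488 in ES cells. Of these markers 13 of 14 were above the detection level in T cells and all 14 in B cells. Itgam was near that level, with 94.5 in T cells and 101 in B cells.

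All 10 measured dendritic cell markers were higher in T cells, 2 of them by 4-fold or more, beside 2.49% of all measured genes. The median log2 difference of these markers was 1.60. The 2 were Ccr9, at 3.27, and Itgae, at 2.24 as a bound, and both genes are also known to be expressed by T cells. The 5 probe sets of Ccr9 ran from 0 to 3.27, and the other probe set of Itgae gave 0.90. The summed signal of the dendritic cell markers, over 11 with a probe set, was 9556 in T cells, 3004 in B cells and 1705 in ES cells. The integrin gene Itgax, which encodes CD11c, had 904 in T cells, against 303 in B cells, and Xcr1 was below the detection level in all 3 arrays. The summed signal of the B cell markers was 9632 in T cells, 190491 in B cells and 1131 in ES cells. The labels' protocols state a purity above 98% for both lymphocyte samples. What B cells, macrophages or dendritic cells contributed to the class II signals of the T cell array was not tested.

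The low class II signals of the ES cell array stood beside fibroblast markers from 664 to 16854, each of which was lower by 4-fold or more in either lymphocyte array. In that array H2-Eb1, at 269, H2-DMa, at 140, and Cd74, at 115, were the only ones of the 9 genes above the detection level. What the feeder cells contributed to those 3 signals was not tested.

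The genes of the proteins that bind the class II promoter module were examined next. All 7 genes of the RFX complex, NF-Y and CREB1 were above the detection level in all 3 arrays. A difference of 4-fold or more was seen for 0 of 7 in both comparisons of T cells and for 1 of 7 in B cells against ES cells. Over all measured genes 10.8% were higher and 10.2% lower by as much in T cells against ES cells, 9.85% and 10.3% in B cells against ES cells, and 2.49% and 1.85% in T cells against B cells, so these counts were near the shares of all genes. Their median log2 difference was 1.11 for T cells over ES cells, 0.81 for B cells over ES cells and -0.31 for T cells over B cells. The 1 gene was Rfx5, which encodes the DNA-binding subunit of the RFX complex, with signals of 1019 in T cells, 3347 in B cells and 310.5 in ES cells. From this 1 probe set T cells exceeded ES cells 3.28-fold, B cells exceeded ES cells 10.8-fold, and T cells were 3.29-fold below B cells.

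The other RFX subunits, Rfxap and Rfxank, did not reach 4-fold in any comparison. Rfxap had 854.5 in T cells, 665 in B cells and 395 in ES cells, and Rfxank had 431, 542 and 169 in the same order. Of the NF-Y genes, Nfya had 674 in T cells, 954 in B cells and 545 in ES cells. Nfyb had 1300, 1143 and 2175 in the same order, and Nfyc had 1671, 2068 and 2748. Nfyb and Nfyc were thus lower in both lymphocyte arrays than in ES cells, by less than 2-fold by their brightest probe sets. The other probe set of Nfyb gave -1.17 on the log2 scale for B cells over ES cells. Creb1 had 3991 in T cells, 3736 in B cells and 1590 in ES cells. Among the class II genes outside the 9, H2-Eb2 had 328 in T cells, 2118 in B cells and 28.4 in ES cells, and its difference of -2.69 for T cells over B cells lay within the range of the 9 genes.

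**Figure D4:**
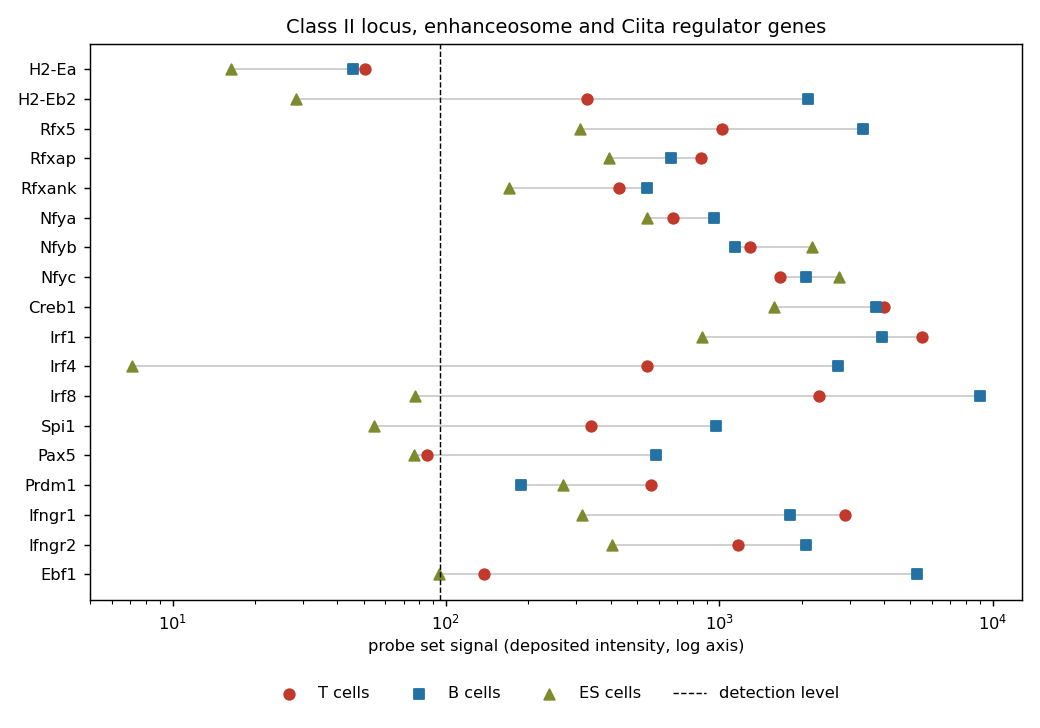
Signal of the brightest probe set of each gene of the other class II locus genes (H2-Ea, H2-Eb2), of the promoter-binding proteins (Rfx5 to Creb1) and of the regulators of Ciita (Irf1 to Ebf1) in T cells, B cells and ES cells, on a log axis, with the detection level of 95.0 dashed; each point is 1 array. The 7 promoter-binding genes are right of the dashed line in all 3 arrays, with Rfx5 at 1019 in T cells, 3347 in B cells and 310.5 in ES cells, and Irf8, Irf4 and Ebf1 have wide gaps between B cells and ES cells.

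Among 9 genes with a probe set that encode regulators of Ciita or the interferon-gamma and B lineage pathways upstream of it, T cells exceeded ES cells 4-fold or more for 4 of 8 measured, and B cells did for 8 of 9, with medians of 2.18 and 2.62, beside 10.8% and 9.85% of all measured genes. Irf8, an interferon regulatory factor of B cells and myeloid cells, had 2308 in T cells, 8989 in B cells and 76.8 in ES cells. Irf4, its lymphoid relative, had 545 in T cells, 2713 in B cells and 7.1 in ES cells, and its log2 difference of T cells over B cells was -2.32 by this probe set and -0.93, as a bound, by its other. Spi1, which encodes the myeloid and B cell factor PU.1, had 339 in T cells, 974 in B cells and 54.5 in ES cells. The B lineage factor Pax5 was above the detection level in B cells alone, with 85.2 in T cells, 584 in B cells and 76.2 in ES cells.

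Between the lymphocyte arrays the median of these 9 genes was -1.52. At 4-fold or more 0 were higher in T cells, near the 2.49% of all measured genes, and 3 were lower, beside 1.85% of all measured genes. The 3 were Ebf1, at -5.26 by its brightest and -0.41, as a bound, by its least different probe set, Pax5, at -2.62 as a bound or -0.89, also a bound, by its other probe set, and Irf4. Of the interferon-gamma pathway genes, Irf1 had 5527 in T cells, 3921 in B cells and 865 in ES cells, and the receptor gene Ifngr1 had 2891, 1813 and 315 in the same order. The gene of the other receptor chain, Ifngr2, had 1175 in T cells, 2081 in B cells and 406 in ES cells, a log2 difference of -0.83 for T cells over B cells, where its other probe set gave 1.29. Prdm1, a repressor of Ciita in plasma cells, had 565 in T cells, 188 in B cells and 268 in ES cells, a 3.01-fold difference between T cells and B cells.

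The genes of endosomal processing and class II turnover were a mixed group. At 4-fold or more, 7 of 15 were higher and 1 lower in T cells against ES cells (median 1.88), 9 were higher and 1 lower in B cells against ES cells (median 2.73), and 0 were higher and 2 lower in T cells against B cells (median -0.56). The 1 lower gene of 15 is close to the shares of all measured genes lower by as much against ES cells, 10.2% for T cells and 10.3% for B cells, while 10.8% and 9.85% were higher. Between T cells and B cells 2.49% of all measured genes were higher and 1.85% lower by as much, so 0 of 15 higher was near that share. Cathepsin S, encoded by Ctss, trims the invariant chain, and its gene had 14488 in T cells, 21599 in B cells and 270.4 in ES cells. Sppl2a, a protease that removes the last membrane fragment of the invariant chain, had 2614 in T cells, 2166.5 in B cells and 293.5 in ES cells. T cells thus had 67.1% of the B cell signal for Ctss, above every value of the 9 genes of the set.

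The 2 genes lower by 4-fold or more in T cells against B cells were Marchf1 and Ctsh. Marchf1, a ubiquitin ligase that removes class II molecules from the surface, had 488 in T cells, 3790 in B cells and 4.8 in ES cells, and 1 of its 3 probe sets, below the detection level in all arrays, gave no difference. Cd83, which opposes Marchf1, had 2781 in T cells, 10274 in B cells and 85.4 in ES cells. Ctsh, encoding cathepsin H, had 2708, 11098 and 209 in the same order, a log2 difference of -2.04 for T cells over B cells, and its other probe set, at -1.99, was just short of 4-fold. Unc93b1, which carries Toll-like receptors to the endosome, was 3.95-fold lower in T cells than in B cells.

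Ifi30, the thiol reductase of the endosome, had 4474.5 in T cells, 11913 in B cells and 1792 in ES cells. Lgmn, which encodes an asparaginyl endopeptidase, had 3034, 4463 and 822 in the same order. Both were higher in the lymphocyte arrays than in the ES cell array, by 2.50-fold and 3.69-fold in T cells and by 6.65-fold and 5.43-fold in B cells. Ctsl, encoding cathepsin L, was the gene lower by 4-fold or more in both, by 6.78-fold in T cells and 16.2-fold in B cells, with 14442 in ES cells, and its other probe set was below the detection level in all 3 arrays.

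The genes outside the set with the most similar pattern were ranked over the 3 arrays by the distance on the log2 scale between their differences from ES cells and the median of the 9 genes. Of 12209 genes compared, the nearest were Bank1 at 0.37, Ly86 at 0.50, Pou2af1 at 0.56, Mzb1 at 0.70 and Cybb at 0.74. All 5 were below the detection level in ES cells, as was H2-Ob, which gave the median of the 9 genes, so these distances lie between bounds set by that level. Bank1 had signals of 1682 in T cells, 17652.5 in B cells and 51.6 in ES cells, and Ly86 had 3067, 16474 and 29.9 in the same order. Nearest to Ciita alone were Ero1b at 0.18, Sh3bp2 at 0.25, Angptl1 at 0.27, Cnr2 at 0.31 and Rasgef1b at 0.32. The differences of Ciita from ES cells are bounds, whereas those of Ero1b and Angptl1, with ES cell signals of 236 and 127, are not, so that their nearness is to a bound set by the detection level. With 3 arrays such a likeness is a description of these values.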

How the data were processed

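The authors deposited linear intensities of 45037 probe sets on 3 arrays, made with Affymetrix Expression Console per the submitters' processing notes. Its algorithm, version and settings are not stated. The 2% trimmed means of the columns were 497.7 for T cells, 497.8 for B cells and 497.3 for ES cells, so the arrays share a scale that hides any change in total mRNA per cell. The number of arrays limits the precision.

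Probe sets were named through GEO's platform annotation, and 0 symbols changed when Entrez IDs were looked up in RefSeq's GRCm38.p6 table. A single symbol was listed for 34945 probe sets, several for 932 and none for 9160. The probe set that was brightest on average stood for its gene. Values below 95.0 were raised to it, and a difference was counted from 4-fold with the brighter array above 95.0. Python 3.11.15, numpy 2.4.6 and pandas 2.3.3 were used. The 9 genes, the lists and the rule for naming were chosen with earlier results of these data known. All 9 genes were named with every probe set, the class II locus and promoter-binding genes all by name, of the regulators and processing genes the 4 of greatest difference in each comparison and a fixed few (Irf4, Irf8, Spi1, Pax5, Ctss, Lgmn, Ifi30 and Marchf1), and 5 genes for each likeness. Prdm1, Ifngr2, Ctsl and the markers named were chosen after their values were seen. Some genes of the lists are not reported here. The alternatives tried were a quantile normalization, scaling to the 75th percentile, a detection level at the 65th percentile, no floor with 16 added, the mean of all probe sets and a 2-fold threshold.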

Additional observations from a re-analysis of the deposited data

How the results depend on the processing

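The number of the 9 genes at 4-fold was 8 for T cells against ES cells, 9 for B cells against ES cells and 7 for T cells against B cells under quantile normalization, scaling to the 75th percentile, a detection level at the 65th percentile and the mean of all probe sets. With no floor and 16 added the first was 9. At a 2-fold threshold all 9 genes were counted in each comparison. Among all measured genes, 2802 of 12325 were then higher in T cells than in ES cells, and 2635 of 12463 higher in B cells than in ES cells. Lower in T cells than in B cells by 2-fold were 707 of 11194. No difference of a class II gene or of Ciita changed sign under these alternatives. Raising the detection level to 244.5, the 65th percentile, lowers every bound by construction, and put the median of T cells over ES cells at 3.15 in place of 4.51 and that of B cells over ES cells at 6.45 in place of 7.48. With no floor the median of T cells over ES cells was 5.55. Between T cells and B cells the median stayed between -2.74 and -2.46. With the mean of all probe sets H2-Aa had -1.74 in place of -1.31 and Ciita -2.43 in place of -3.13. At the higher detection level T cells were lower than ES cells by 4-fold or more for 784 of 9963 measured genes, in place of 1252 of 12325. They were higher for 929 in place of 1332. B cells were lower than ES cells for 799 of 9845, in place of 1289 of 12463, and higher for 904 in place of 1227. Between the lymphocyte arrays T cells were higher for 166 of 8866, in place of 279 of 11194, and lower for 159 in place of 207. Without replicates no paired analysis was possible because each population has 1 array, and signal near the detection level limits Ciita and the ES cell values.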
